A study of Mus musculus with 30 samples.

Results

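The genes described here are the ribosomal protein genes: the protein-coding genes of GENCODE M21 whose symbol begins with Rpl or Rps and a digit, together with Rplp0, Rplp1, Rplp2 and Rpsa, and without the Rps6k kinases, Rps19bp1 and Rpl7l1. There were 90 such genes among the 55421 genes in the count table, 34 of the small and 56 of the large subunit by symbol. Of these, 4 are X-linked (Rps4x, Rpl10, Rpl36a and Rpl39), 86 are autosomal, and 6 carry a pseudogene symbol although they are annotated as protein-coding. The members were taken by symbol and annotation, with no threshold on a measured value, although the rule was set with earlier results of these data known.

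Bulk mRNA was sequenced in 30 libraries of 17 kinds of female mouse embryonic stem cells (mESCs) that hold 1 129/Sv (Mus) and 1 Cast/Ei (Cast) genome. XX wild type, XX Rnf12+/-, XCastOMus (XCastO129 in the labels, the Mus X lost) and XMusOCast (X129OCast in the labels, the Cast X lost) had 2 libraries each. The 13 deletion lines were all Rnf12+/- as well, each with a further heterozygous deletion on the Mus X, and were sequenced from 2 clones (C, D, E, F, H, I, I-TEL, J and K) or 1 clone (A, B, AB and C-G). Deletions J and I-TEL were made in a second Rnf12+/- founder line and all others in the first, so a difference between founders cannot be told apart from these deletions. The libraries of deletion E, XX Rnf12+/- and XX wild type formed a batch of 6, those of the other deletion lines a batch of 20, and those of the XO lines a batch of 4 that was read as single rather than paired reads, so that the XO state cannot be told apart from its batch or its read type. XMusOCast also lacks an intact Rnf12, whereas XCastOMus keeps 1 intact copy, as XX Rnf12+/- does. In XMusOCast the XO state can therefore not be told apart from the loss of Rnf12 either. Feeder fibroblasts were depleted before lysis, and each line stands for 1 or 2 clones of 1 hybrid background.

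Ribosomal proteins assemble with ribosomal RNA into the small (Rps) and large (Rpl) ribosomal subunits, and nearly all are needed in equal amounts for every ribosome. Their mRNAs are among the most abundant in dividing cells, and a missing copy of one such gene can limit ribosome assembly, which is known to stabilise p53. Most of these genes have intronless copies elsewhere in the genome, a known hindrance to counting short reads, and some X-linked ones have autosomal relatives that are used in the germ line.

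The coding sequences of the X-linked members and their measured autosomal relatives show how close these copies are. The first 150 coding bases are given 5′ to 3′ from GRCm38, with capitals at bases that differ from the X-linked gene at the same position. Rpl10 lies at chrX:74270812-74273135 on the plus strand, Rpl10-ps3 at chr9:50344201-50344968 on the minus strand in 1 exon, and Rpl10l at chr12:66283379-66284401 on the minus strand.
Rpl10: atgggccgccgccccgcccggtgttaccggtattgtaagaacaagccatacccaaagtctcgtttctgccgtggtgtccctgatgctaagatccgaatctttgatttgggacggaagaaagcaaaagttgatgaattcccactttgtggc
Rpl10-ps3: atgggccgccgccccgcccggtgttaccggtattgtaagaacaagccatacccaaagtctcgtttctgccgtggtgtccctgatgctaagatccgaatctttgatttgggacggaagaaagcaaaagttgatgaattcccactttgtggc
Rpl10l: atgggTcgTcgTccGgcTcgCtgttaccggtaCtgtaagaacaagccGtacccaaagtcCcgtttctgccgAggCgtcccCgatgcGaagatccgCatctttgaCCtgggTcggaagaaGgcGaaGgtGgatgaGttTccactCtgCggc
Over all 645 coding bases, Rpl10-ps3 had 0 differences from Rpl10, whereas Rpl10l had 98 (84.8% identity).

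Rpl36a lies at chrX:134585654-134588056 on the plus strand, Rpl36a-ps1 at chr14:98993870-98994318 on the minus strand in 1 exon, and Rpl36al at chr12:69182741-69184083 on the minus strand. The 3 sequences are shown because the level of Rpl36a-ps1 moved with that of Rpl36a below.
Rpl36a: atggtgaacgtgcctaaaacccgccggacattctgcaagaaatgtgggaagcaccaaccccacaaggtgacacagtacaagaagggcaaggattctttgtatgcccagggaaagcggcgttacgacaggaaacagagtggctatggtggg
Rpl36a-ps1: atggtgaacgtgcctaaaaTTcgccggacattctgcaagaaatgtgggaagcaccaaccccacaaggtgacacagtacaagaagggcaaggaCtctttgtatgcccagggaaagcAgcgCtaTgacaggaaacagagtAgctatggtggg
Rpl36al: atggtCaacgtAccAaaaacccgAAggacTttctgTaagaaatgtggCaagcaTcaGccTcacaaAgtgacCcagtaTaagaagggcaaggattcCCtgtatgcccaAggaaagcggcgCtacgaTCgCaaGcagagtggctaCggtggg
Rpl36a-ps1 differed from Rpl36a at 7 of 321 coding bases (97.8% identity) and Rpl36al at 39 (87.9%).

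Rpl39 lies at chrX:37082520-37085402 on the minus strand and its relative Rpl39l, which is on chromosome 16 and has introns, at chr16:10170228-10174911 on the plus strand.
Rpl39: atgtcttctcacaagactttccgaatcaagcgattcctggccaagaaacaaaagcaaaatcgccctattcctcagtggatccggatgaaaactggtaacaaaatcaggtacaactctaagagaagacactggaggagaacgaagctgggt
Rpl39l: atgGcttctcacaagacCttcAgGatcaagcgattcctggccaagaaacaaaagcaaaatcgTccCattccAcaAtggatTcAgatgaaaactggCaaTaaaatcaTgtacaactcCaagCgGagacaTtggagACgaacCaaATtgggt
They differed at 23 of 156 coding bases (85.3% identity). The share of 50-base windows of the transcript found in no other annotated transcript was 7.87% for Rpl10, 14.52% for Rpl36a, 27.8% for Rps4x and 83.5% for Rpl39, and over the 83 autosomal members tested it ran from 1.35% to 100% with a median of 40.1%.

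All 9 stem cell markers examined were expressed in all libraries, with Pou5f1 at 1520 to 2160 TPM (counts per transcript length, scaled to the same total in each library), while the primitive endoderm marker Gata6 stayed at 0.101 to 3.04 TPM and no marker of the feeder or endoderm lists was at 0. The 10 feeder markers summed to 490 to 1918 TPM over the libraries of the batch of 6, to 521 to 990 TPM over the 13 reference libraries defined below, and to 644 to 1018 TPM in the XO lines. Rlim, the gene of Rnf12, was at 193 to 211 TPM in XX wild type, 77.6 to 79.7 TPM in XX Rnf12+/-, 71.2 to 77.8 TPM in XCastOMus and 3.53 TPM in both XMusOCast libraries. Depth was 8.82e+06 to 1.07e+07 counts per library in the batch of 20, 2.04e+07 to 2.12e+07 in the batch of 6 and 1.50e+07 to 1.65e+07 in the XO lines. In such bulk data fewer cells of a type and less RNA per cell cannot be told apart.

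Ribosomal protein mRNAs were abundant in these cells, but by no means equally so. In XX Rnf12+/- 87 of the 90 genes passed a mean of 5 TPM, 4 of them X-linked and 83 autosomal, and their mean levels ran from 6.26 to 6513 TPM with a median of 640 TPM. The 3 others, Rpl9-ps1 (0.425 TPM), Rpl36-ps4 and Rps12-ps3 (both listed at 0), all have pseudogene symbols and were not tested. Members made up 23 of the 100 genes with the highest TPM, and 22 were over 1000 TPM. Rplp1, a protein of the acidic stalk that recruits elongation factors, was highest at 6513 ± 135 TPM (SD, n = 2), followed by Rpl8 at 4886 ± 254 TPM and Rpl4 at 4420 ± 478 TPM, both of the large subunit core.

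The lowest levels of the tested members belonged to a paralog of restricted expression and to several members of the large subunit. Rpl3l, a muscle paralog of Rpl3, had 6.26 ± 1.81 TPM, Rpl29 16.9 ± 3.62 TPM, Rpl21 20.5 ± 2.35 TPM and Rpl24 22.9 ± 1.05 TPM (SD, n = 2). The last 3 are components of every large subunit, and their low TPM are levels of counted reads. Of their 50-base windows, 33.4%, 73.8% and 18.3% were unique, and 84, 82 and 10 other genes shared a window with them. Rps10, next at 22.9 TPM, shared a window with 3 other genes, and Rpl7a, at 150 TPM, with 123. The part of close copies in these levels was not tested. All 4 X-linked genes stood in the upper part of the range of the members. They were at 1933 ± 121 TPM for Rps4x, 1186 ± 91.3 for Rpl10, 914 ± 53 for Rpl36a and 708 ± 117 for Rpl39, that is ranks 12, 19, 27 and 36 among the members.

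Together the members took 7.53 to 8.53% of all TPM in the batch of 6, 7.73 to 10.2% in the batch of 20 and 8.69 to 9.03% in the XO lines, so that the XO range lay above that of the batch of 6 and within that of the batch of 20. Between the 13 reference libraries the autosomal members varied little, with a median SD of 0.14 on the log2 scale (0.07 to 0.43) against 0.21 for 11121 other expressed autosomal genes. Both values are descriptions, with no test.

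The question put to the deletion lines was whether losing 1 copy of an X-linked member changes its level. Borders of the deletions place Rpl39 in deletion C, Rpl10 in deletion E, Rpl36a in deletions J and I-TEL, and Rpl39, Rpl10 and Rps4x together in deletion C-G, while deletions A, B, AB, D, F, H, I and K hold none. These 8 lines, 13 libraries in all, served as the reference for the batch of 20, and XX Rnf12+/- served for deletion E. In each case the gene fell to about the share of its copies that remained. In the deletion lines tested (C, C-G, E, J and I-TEL), members that kept both copies were not called. The 8 reference lines were not tested singly.

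Rps4x encodes a small subunit protein that has a Y-linked counterpart in primates, and it was at 1078 TPM in the C-G clone. The 19 other libraries of that batch held 2 copies and 1970 to 2602 TPM (median 2266), so the C-G library lay well below all of them. Its change was -1.11 on the log2 scale (SE 0.10, edgeR quasi-likelihood test, adjusted p = 1.59e-06). The exact permutation test of this 1 library against the 13 reference libraries gave p = 0.0714, two-sided, the smallest it can give.

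Rpl10, a late-joining large subunit protein next to the peptidyl transferase centre, was at 685 TPM in C-G against 1082 to 1513 TPM in the 19 libraries with 2 copies. In deletion E it was at 609 and 574 TPM against 1121 and 1250 TPM in the XX Rnf12+/- libraries and 1270 and 1418 TPM in wild-type ones. The 3 libraries with 1 copy lay below every library of their own batch with 2 copies. The changes were -1.01 (SE 0.11, adjusted p = 1.44e-05) in C-G and -1.04 (SE 0.09, adjusted p = 2.58e-06) in E by edgeR, while the exact permutation tests again gave the smallest p they allow, 0.0714 and 0.0667.

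Rpl36a, a large subunit protein near the exit site for transfer RNA, was at 489 and 495 TPM in deletion J and at 499 and 466 TPM in deletion I-TEL. The 16 libraries of the batch with 2 copies had 826 to 1222 TPM (median 1016), and again no value overlapped. The changes were -1.08 (SE 0.07, adjusted p = 6.36e-08) and -1.14 (SE 0.07, adjusted p = 1.54e-08) by edgeR, and the exact permutation test of the 4 libraries against the 13 gave p = 0.00042 (0.0021 after Benjamini-Hochberg adjustment over the 5 such tests), a ratio of 0.483.

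Rpl39, a very small protein of the peptide exit tunnel, was at 474 and 469 TPM in deletion C and at 436 TPM in C-G. In the 17 other libraries of the batch it was at 643 to 941 TPM (median 850), above all 3. The changes were -0.79 (SE 0.10, adjusted p = 1.21e-05) in C and -0.94 (SE 0.15, adjusted p = 0.00085) in C-G by edgeR, and the exact permutation test of 3 against 13 libraries gave p = 0.00179 (0.00446 adjusted over the 5 tests), a ratio of 0.560.

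**Figure D1:**
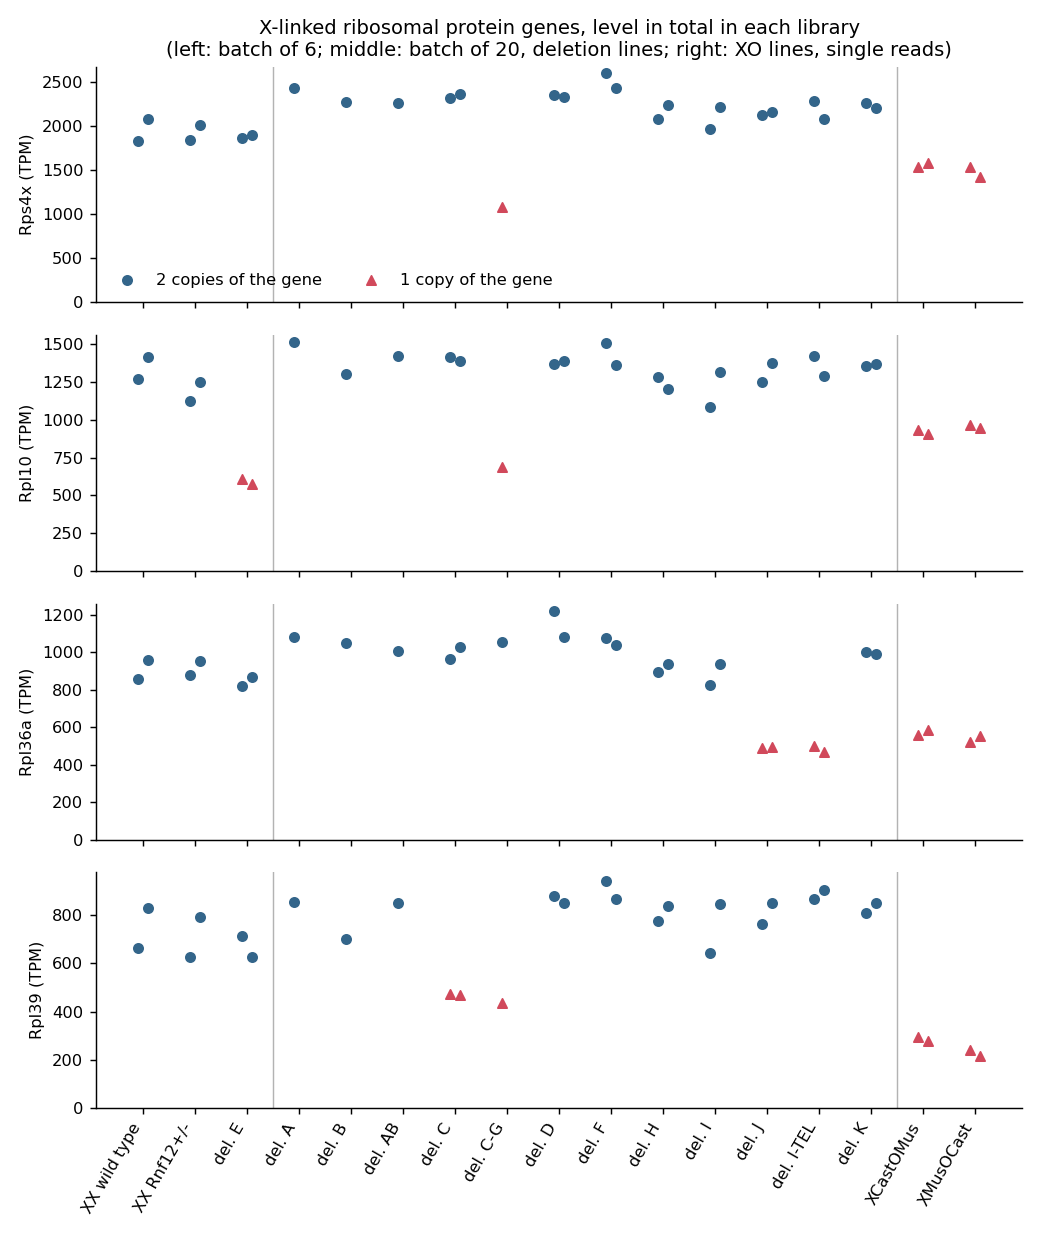
Level in total (TPM, linear axis from 0) of the 4 X-linked members in each of the 30 libraries, with triangles for 1 copy and circles for 2 copies of the gene, in the batch of 6, the batch of 20 and the XO lines from left to right. In the deletion lines every triangle lies below every circle of its batch, for example Rpl36a at 466 to 499 TPM with 1 copy against 826 to 1222 TPM with 2.

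Per remaining copy, the X-linked members of the deletion lines were not called higher. The per-copy differences were -0.11 for Rps4x (95% CI -0.30 to 0.07) and -0.01 for Rpl10 in C-G (-0.21 to 0.20), -0.04 for Rpl10 in E (-0.23 to 0.16), -0.08 for Rpl36a in J (-0.22 to 0.06) and -0.14 in I-TEL (-0.28 to -0.00078). With XX Rnf12+/- as the reference, Rps4x (0.11) and Rpl10 (0.16) in C-G and Rpl36a in J (0.05) had values above 0, none called. Rpl39 had values above 0 with the main reference, at 0.21 in C (0.0012 to 0.41, edgeR adjusted p = 0.103) and 0.06 in C-G (-0.22 to 0.35). In C this passed the threshold when only the batch of 20 was fitted (0.21, adjusted p = 0.0369) and with XX Rnf12+/- as the reference (0.39, adjusted p = 0.0219). With the main references, the upper ends of these intervals, 0.41 at most, lie under the 1 that a full return to the level of 2 copies would need. Smaller rises per copy lie within several of them, as for Rpl39 in C (up to 0.41) and C-G (up to 0.35). Over all genes tested, 0.273% were called per copy in E, 0.291% in C-G, 39.8% in C, 22.7% in J and 20.5% in I-TEL.

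**Figure D2:**
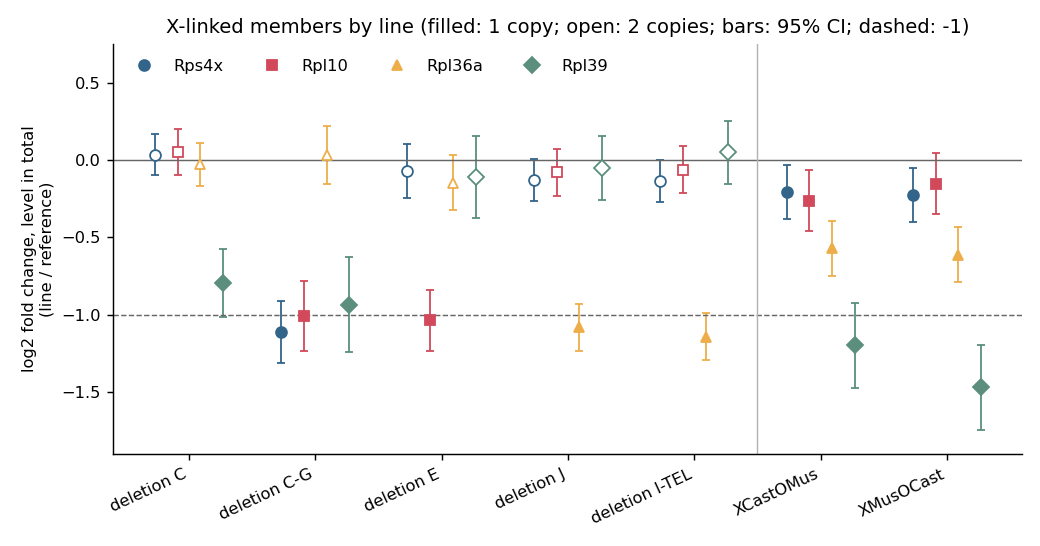
Log2 fold change of the level in total (edgeR, line over reference) of the X-linked members in 5 deletion lines and both XO lines, with bars for 95% confidence intervals, filled symbols for 1 copy and open ones for 2 copies. In the deletion lines filled symbols sit between -1.14 and -0.79 and open symbols near 0, whereas in the XO lines they spread from -1.47 (Rpl39) to -0.15 (Rpl10).

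Reads assigned to the Cast allele gave a second view of the copy that stayed, within their small number. Rps4x had 145 Cast and 6 Mus reads in the C-G clone, and 109 to 165 Cast reads in the 13 reference libraries beside 970 to 1285 Mus reads. Scaled to autosomal allelic reads, its Cast allele differed by 0.03 on the log2 scale (exact permutation test, two-sided, p = 0.857). The Cast allele of Rpl10 had 37 reads in C-G against 15 to 38 in the reference libraries, a difference of 0.48 (exact permutation p = 0.429), and 76 and 51 reads in E against 45 to 81 in the other 4 libraries of the batch, a difference of -0.04 (exact permutation p = 0.933). The exact tests with 1 clone cannot go below 0.0714, and Rpl36a and Rpl39 had no allelic read in any paired-read library.

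The allelic reads of Rps4x were themselves lopsided. Both copies present, 92.5% of them were Mus in XX Rnf12+/- (95% Wilson interval 91.8 to 93.2) and 89.1% in the 13 reference libraries (88.6 to 89.6), intervals that cover counting error only. In the C-G clone, where the Mus copy is deleted, total counts were 5321 against 9741 to 13393 in the 19 other libraries of the batch, and allelic reads came to 2.84% of them, against 11.5% at the median of the batch. In the XO lines, read as single reads, XCastOMus gave 2332 and 2197 Cast reads for Rps4x beside 43 and 84 Mus reads, and XMusOCast gave 3018 and 2659 Mus reads and 0 Cast reads.

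Close copies on autosomes moved with the X-linked gene that lost a copy. Rpl36a-ps1, identical to Rpl36a at all but 7 coding bases, was at 134 and 127 TPM in J and 144 and 130 TPM in I-TEL, below all 13 reference libraries (241 to 313 TPM). Its changes of -1.09 (SE 0.11) and -1.05 (SE 0.11) were of the size of those of Rpl36a itself, with edgeR adjusted p = 2.87e-06 and 2.63e-06. It lies on chromosome 14, outside any deletion.

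Rpl10-ps3, whose coding sequence equals that of Rpl10, was at 30.9 and 32.1 TPM in deletion E against 78.1 and 79.4 TPM in XX Rnf12+/- (log2 fold change -1.35, SE 0.21, edgeR adjusted p = 0.00199). Values of 56.9 and 57.4 TPM were found in wild-type cells, so E was lowest in the batch. In C-G, where Rpl10 also fell, it was at 13.8 TPM, near the low end of the 12.7 to 30.1 TPM in the 13 reference libraries, and was not called. Only 3.89% of the 50-base windows of Rpl10-ps3 and 35% of those of Rpl36a-ps1 were found in no other transcript, and the part of reads from the X-linked genes in these values was not tested. Among the less similar relatives, Rpl10l at 105 and 110 TPM in E against 94.8 and 108 TPM, and Rpl39l at 46.3 and 47.1 TPM in C against 25.8 to 59.1 TPM, were not called, and neither was called in C-G. Rpl36al was called lower in J and I-TEL, as given with the other chromosome 12 members.

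In the XO lines, where all 4 genes are reduced to 1 copy, their levels followed no common ratio. Rps4x was at 1532 and 1585 TPM in XCastOMus and at 1534 and 1428 TPM in XMusOCast, against 1848 and 2019 TPM in XX Rnf12+/-. Its level in total changed by -0.20 (SE 0.08, edgeR adjusted p = 0.053) and -0.23 (SE 0.08, adjusted p = 0.028), and the XMusOCast call was lost without XX Rnf12+/- clone 2 (adjusted p = 0.188) or XMusOCast clone 2 (0.189). The XCastOMus change in total was called with DESeq2, with upper-quartile factors, without the TPM filter and with XX wild type as the reference. Per copy Rps4x was 0.80 (SE 0.08) and 0.77 (SE 0.08) higher.

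Rpl10 was at 931 and 905 TPM in XCastOMus and 967 and 942 TPM in XMusOCast against 1121 and 1250 TPM, in total -0.26 (edgeR adjusted p = 0.031) and -0.15 (adjusted p = 0.174), and per copy 0.74 and 0.85 higher. Its call in total in XCastOMus was lost without XX Rnf12+/- clone 2 (adjusted p = 0.208), XCastOMus clone 1 (0.0688) or XCastOMus clone 2 (0.121). The XMusOCast change of Rpl10 in total was called with upper-quartile factors and with XX wild type as the reference. Rpl36a was at 560 and 583 TPM in XCastOMus and 519 and 553 TPM in XMusOCast against 876 and 951 TPM, in total -0.57 and -0.61 and per copy 0.43 and 0.39 higher. All libraries of the XO lines lay below both XX Rnf12+/- libraries for these genes.

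Rpl39 went the other way per copy. It was at 295 and 279 TPM in XCastOMus and at 241 and 218 TPM in XMusOCast against 625 and 791 TPM, so it fell in total by more than its loss of copies, by -1.2 (SE 0.13) and -1.47 (SE 0.13). Per copy its change was -0.20 (95% CI -0.47 to 0.07, edgeR adjusted p = 0.229) and -0.47 (-0.74 to -0.20, adjusted p = 0.00525). Genes called per copy in either direction made up 41.1% of all genes tested in XCastOMus and 53.6% in XMusOCast, so that a call is common there.

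The 1-copy lines with deletions and the XO lines thus held different levels of the same gene beside their own references, a difference that was not tested because the XO libraries stand in a batch of their own. With the 8 deletion lines as the reference, an alternative added after seeing the data, the per-copy values in XCastOMus and XMusOCast were 0.57 and 0.55 for Rps4x, 0.57 and 0.68 for Rpl10, 0.30 and 0.26 for Rpl36a, and -0.38 and -0.65 for Rpl39, each past the threshold by edgeR. The autosomal members, whose copy number the loss of an X does not change, moved in the same libraries too.

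Of the 83 autosomal members, 49 were called higher and 8 lower in XCastOMus, where 19.5% of all genes tested were higher and 23.3% lower. In XMusOCast 49 were called higher and 7 lower, beside 25.5% and 29.1% of all genes. Both XO lines share the XX Rnf12+/- libraries as reference. The median change of the members was 0.44 (-1.66 to 3.75) in XCastOMus and 0.38 (-1.9 to 3.66) in XMusOCast, against a median of -0.02 over all autosomal genes in each. By subunit, 19 of 32 Rps and 30 of 51 Rpl genes were higher in XCastOMus, and 18 and 31 in XMusOCast.

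The largest rises belonged to members with low levels in paired-read libraries. Rpl24, which bridges both subunits, was at 295 and 280 TPM in XCastOMus and 270 and 250 TPM in XMusOCast against 23.6 and 22.1 TPM in XX Rnf12+/- (log2 fold changes 3.75 and 3.66, SE 0.15 each). Rps27rt, an intronless copy of the small subunit gene Rps27, was at 668 and 698, and 584 and 536 TPM, against 56.4 and 64.5 TPM (3.60 and 3.37, SE 0.21 each). All 26 paired-read libraries held at most 36.6 TPM of Rpl24 and 64.5 TPM of Rps27rt, so that these genes separated the XO libraries from every other line.

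Rpl21 was at 83.9 and 62.0, and 116 and 88.4 TPM, against 22.2 and 18.9 TPM (1.93, SE 0.33, and 2.48, SE 0.33). Rpl29, known from its heparin binding, was at 49.1 and 56.0, and 58.4 and 50.1 TPM, against 19.4 and 14.3 TPM (1.74 and 1.84, SE 0.25 each). Adjusted p-values of these 4 genes by edgeR ran from 2.75e-12 to 0.000141. None of the 4 had its XO and XX Rnf12+/- values overlap.

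Among the falls were both close copies of X-linked genes. Rpl36a-ps1 was at 57.8 and 52.9 TPM in XCastOMus and 50.8 and 54.5 TPM in XMusOCast against 176 and 201 TPM (-1.66 and -1.68, SE 0.14 each), a larger fall than that of Rpl36a. Rpl10-ps3 was at 24.6 and 22.5, and 19.7 and 17.9 TPM, against 78.1 and 79.4 TPM (-1.63 and -1.9). With the 8 deletion lines as reference, where it was at 12.7 to 30.1 TPM, its change was 0.17 and -0.10 and was not called.

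Of the other stalk and surface proteins, Rplp0, the stalk base, was 0.63 and 0.71 higher in XCastOMus and XMusOCast (SE 0.07 each), and Rpsa, the laminin receptor, was 1.33 and 1.17 higher (SE 0.10 each). Rpl5 and Rpl11, which bind 5S ribosomal RNA and Mdm2, were 0.30 and 0.27, and 0.64 and 0.68 higher, and of the relatives Rpl36al (0.99 and 1.13) and Rpl39l (0.76 and 0.65) were called higher while Rpl10l (0.18 and 0.35) and Rpl22l1 (0.27 and 0.04) were not called. None of these was called in deletion E, C or C-G.

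Smaller falls were seen in other members. Rplp2, a partner of Rplp1 in the stalk, was at 779 and 908 TPM in XCastOMus against 1204 and 1356 TPM (-0.50, SE 0.11, edgeR adjusted p = 0.00103). Rps27l, a paralog of Rps27 and a known p53 target, was at 614 and 548 TPM in XCastOMus and 464 and 375 TPM in XMusOCast against 871 and 819 TPM (-0.43 and -0.85, SE 0.09 each, adjusted p = 0.00097 and 6.08e-07).

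**Figure D3:**
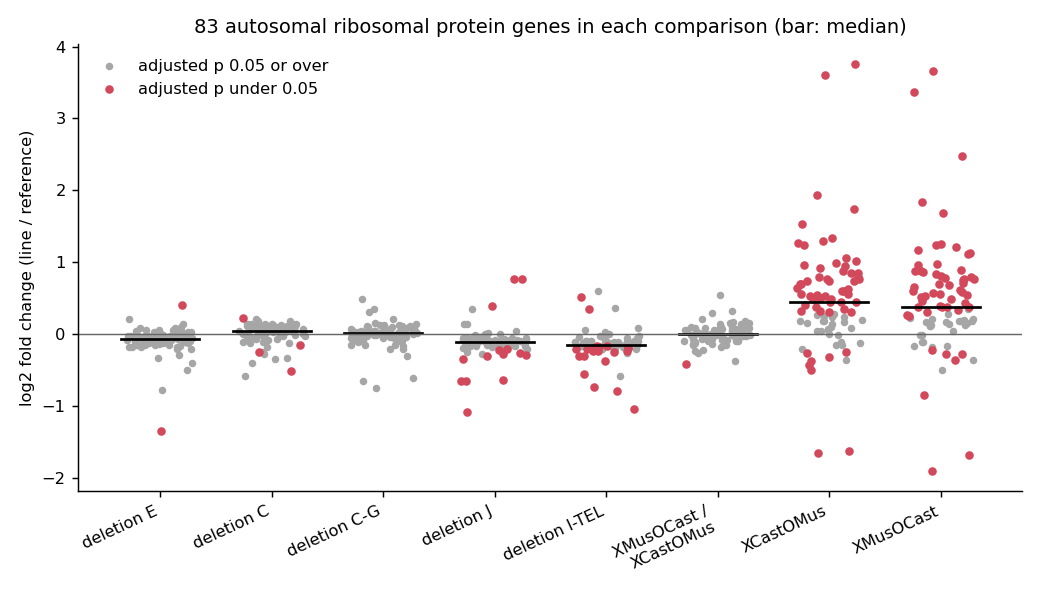
Log2 fold change (edgeR, line over reference) of the 83 autosomal members in 8 comparisons, in red where the adjusted p was under 0.05, with the median as a bar. The median is 0.44 in XCastOMus and 0.38 in XMusOCast, and between -0.16 and 0.04 in the deletion lines.

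In the XO lines the median change was higher among members with fewer unique windows, a difference that was not tested. The 48 members with under 50% unique windows had a median change of 0.49 in XCastOMus and 0.52 in XMusOCast, and the 35 others 0.23 and 0.35. Of the 48, 32 were called higher and 5 lower in XCastOMus, and 32 and 4 in XMusOCast. Of the 35 others, 17 were called higher and 3 lower in each line. In the deletion lines, all read in pairs, the medians of both classes lay between -0.17 and 0.06. Read type, batch and XO state coincide, and their parts in the result were not tested.

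Compared with each other, the XO lines gave 1 call among the 83 autosomal members, Rps27l, which was lower in XMusOCast than in XCastOMus by -0.42 (SE 0.09, edgeR adjusted p = 0.0103), where 4.78% of all genes were called higher and 4.30% lower. Their values did not overlap, and the median change of the members was 0.00. By leaving out 1 library the call was lost without XCastOMus clone 1 (adjusted p = 0.0705) or XMusOCast clone 2 (0.173), and 3 members were called without XCastOMus clone 2. None of the 4 X-linked members was called between the XO lines (-0.27 for Rpl39, adjusted p = 0.208, and -0.04 to 0.11 for the others). Of 13 p53 targets tested, 4 were lower in the same comparison, and Rlim was at 3.53 TPM in XMusOCast against 71.2 to 77.8 TPM in XCastOMus. The part of either in the result was not tested.

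In the deletion lines of the first founder, few autosomal members moved when an X-linked partner lost a copy. In deletion E 1 was called higher and 1 lower, beside 0.342% and 0.504% of all genes. The higher one was Rpl13a, a large subunit protein known from interferon-driven translational control, at 342 and 358 TPM against 262 and 253 TPM (0.41, SE 0.09, edgeR adjusted p = 0.044), and the call was lost with the replicate number in the fit (adjusted p = 0.052), without deletion E clone 1 (0.219) or clone 2 (0.411), without XX Rnf12+/- clone 2 (0.380), and in 3 other settings. The lower one was Rpl10-ps3, above, whose adjusted p was 0.062 without deletion E clone 2. The median over the members was -0.07, and 65 of 83 values were negative.

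In deletion C-G, where 3 X-linked members had 1 copy each, 0 of the 83 were called by edgeR, beside 0.273% of all genes higher and 1.20% lower. There were 4 at an unadjusted p under 0.05 and 1 called by DESeq2, and the median change was 0.01. With 1 clone this line offers no spread of its own. Rpl13a was at 338 TPM there, above the 13 reference libraries (216 to 317 TPM), while Rps10 at 34 TPM lay inside their range (13.6 to 38.9 TPM).

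In deletion C 1 member was called higher and 3 lower, beside 21.1% and 19.0% of all genes. Rps15a was at 240 and 230 TPM (0.22, SE 0.07, edgeR adjusted p = 0.023), Rps10 at 18.1 and 15.4 TPM (-0.52, SE 0.15, adjusted p = 0.012), Rpl13a at 244 and 239 TPM (-0.25, SE 0.07, adjusted p = 0.012) and Rps13 at 420 and 425 TPM (-0.15, SE 0.06, adjusted p = 0.038). All are values within the reference ranges of 178 to 231, 13.6 to 38.9, 216 to 317 and 388 to 507 TPM, except for 1 clone of Rps15a. Without deletion C clone 2 all 4 calls were lost and without clone 1 the count was 1, while without deletion A it was 9 and without deletion I clone 2 it was 8, and with XX Rnf12+/- as the reference, which is of another batch, 34 were called higher and 5 lower.

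In the lines of the second founder, more members were called than in E, C and C-G. In deletion J 3 (3.61%) were called higher and 11 (13.3%) lower, beside 11.3% and 11.8% of all genes. The J share called lower was near that of all genes, and the share called higher was below it. In deletion I-TEL 2 (2.41%) were higher and 21 (25.3%) lower, beside 11.2% and 10.3%. The median change was -0.11 in J and -0.16 in I-TEL, with 74 and 75 of 83 values negative, against a median over all autosomal genes of 0.00 in each. Without deletion A the I-TEL count was 15, and without I-TEL clone 2 it was 6. Without J clone 1 or clone 2 the J count was 5 and 7, and without the reference libraries deletion F clone 2 and deletion I clone 1, an alternative added after seeing the data, it was 22. With XX Rnf12+/- as the reference, which is of another batch, 6 were higher and 7 lower in J, and 5 and 8 in I-TEL, and the medians were 0.04 and 0.01.

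Beyond Rpl36a-ps1, the largest falls were of Rps7, Rps29 and Rpl36al, all on chromosome 12. Rps7, a small subunit protein that also binds Mdm2, was at 1139 and 1141 TPM in J and 1174 and 1329 TPM in I-TEL against 1541 to 2006 TPM in the 13 reference libraries (-0.65, SE 0.07, and -0.56, SE 0.07). Rps29, a zinc-binding protein of the small subunit head, was at 2398 and 2470, and 2430 and 2265 TPM, against 2632 to 4441 TPM (-0.65 and -0.73, SE 0.08 each). Rpl36al, the autosomal relative of Rpl36a, was at 20.3 and 19.5, and 18.5 and 18.2 TPM, against 25.3 to 35.4 TPM (-0.64, SE 0.12, and -0.79, SE 0.13). No J or I-TEL value of these genes overlapped the reference, and their edgeR adjusted p-values ran from 2.76e-06 to 0.00125. XX wild type keeps both copies of Rpl36a, and there Rpl36al was at 19.0 and 19.7 TPM and Rps29 at 2057 and 2284 TPM. In XX Rnf12+/-, of the same batch as wild type, Rpl36al was at 29.9 and 29.9 TPM and Rps29 at 3330 and 3171 TPM.

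Smaller falls were called in both lines for Rpl22 (-0.35 in J and -0.37 in I-TEL), Rpl28 (-0.30 in each), Rps15a (-0.30 in each), Rps20 (-0.27 and -0.23) and Rpl3 (-0.26 and -0.23), spread over chromosomes 4, 7 and 15. All 5 lost their call in J without J clone 1, in I-TEL without I-TEL clone 2, and in both lines with XX Rnf12+/- as the reference, and the numbers of members lower without these clones were 4 in J and 4 in I-TEL. Rpl3 is part of the peptidyl transferase centre, and Rpl22 is known for regulating its own paralog. Of the members outside chromosomes 8 and 12, 18 were lower and 0 higher in I-TEL, and 8 lower and 2 higher in J.

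The rises were of other kinds. Rpl39l, the testis-enriched relative of Rpl39, was at 75.7 and 76.6 TPM in J against 25.8 to 59.1 TPM (0.77, SE 0.16, edgeR adjusted p = 0.00186), and Rpl3l was at 12.7 and 10.2 TPM against 3.64 to 8.59 TPM (0.76, SE 0.24, adjusted p = 0.027). The call of Rpl3l was lost without J clone 1 (0.58, adjusted p = 0.343), without J clone 2 (0.93, 0.0760) and with XX Rnf12+/- as the reference (0.81, 0.0758). Rpl13 was at 402 and 281 TPM in I-TEL against 179 to 443 TPM (0.51, SE 0.14, adjusted p = 0.015). That call was lost with XX Rnf12+/- as the reference. Rpl13 lies on chromosome 8, and without I-TEL clone 1 it was not called (0.20, adjusted p = 0.493).

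Beside these changes, 2 of 7 feeder markers tested were higher in J and 1 of 7 in I-TEL, although the 10 markers summed to 794 to 940 TPM in both lines, inside the reference range of 521 to 990 TPM. The only primitive endoderm marker tested, Dab2, was higher in both (0.82 each), and the 5 of that list summed to 20.2 to 26.8 TPM against 10.4 to 17.7 TPM. Their part in the result was not tested.

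The genes around a member were used to see whether its level stood out from its neighbourhood. For each library the log2 level of every expressed gene was set against the median of the reference libraries of the batch, or of all libraries of the batch for the batch of 6 and the XO lines, and a member was placed beside the median of the other genes within 5 Mb. In the batch of 20, in 1626 of the 1660 pairs of a member and a library the neighbours lay within 0.25 of 0, and the member had a median of 0.00. In 18 pairs the neighbours were over 0.25 higher, and 16 of the members were higher too (median 0.41), and in 16 pairs the neighbours were lower and 14 members were lower (median -0.60).

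The chromosome 12 and chromosome 8 members of J and I-TEL were among these pairs. Around Rps7 the neighbours deviated by -0.55 and -0.51 in J and by -0.54 and -0.43 in I-TEL, where Rps7 itself deviated by -0.60 and -0.60, and -0.56 and -0.38. Around Rps29 and Rpl36al, which lie close together, the neighbours deviated by -0.48 to -0.35. Rpl10l, on the same chromosome, deviated by 0.10 and 0.17 in J where its neighbours were at -0.43 and -0.34, and by -0.07 and -0.20 in I-TEL where they were at -0.45 and -0.28. In XX wild type it deviated by -0.42 and -0.23 and its neighbours by -0.36 and -0.41.

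Allelic reads of these neighbours were alike in J, I-TEL and XX wild type, and around Rpl10l they differed in XX Rnf12+/-. Around Rps7, 49.8% and 48.3% of allelic reads were Mus in J and 47.3% and 50.3% in I-TEL. In XX wild type the values were 48.6% and 47.8%, and there Rps7 was also lower than in XX Rnf12+/-, at 1000 and 1143 TPM against 1452 and 1631 TPM, with its neighbours at -0.33 and -0.37. Around Rpl10l the Mus share was 48.1% and 46.3% in J, 45.0% and 45.8% in I-TEL and 47.9% and 46.2% in those wild-type libraries. In XX Rnf12+/- it was 63.4% and 63.7%. No deletion lies on this chromosome, and DNA copy number was not analysed here.

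On chromosome 8, the neighbours of Rpl13 deviated by 0.40 and 0.47 in J and 0.55 and 0.50 in I-TEL, at a Mus share of 66.7 to 67.6%, and Rpl13 by 0.32 and 0.58, and 0.89 and 0.37. Deletion F clone 2, from the first founder, had 0.48 around Rpl13 at a Mus share of 34.9%, and Rpl13 deviated by 1.03 there. The other clone of deletion F had neighbours of Rpl13 at -0.08 and a Mus share of 50.8%. Whole chromosomes with a median shift of over 0.2 were found in 7 pairs of a chromosome and a library of the 20, and in 0 of the 10 other libraries. Those 10 were set against the median of all libraries of their own batch, so a shift shared by most of a batch could not appear.

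Deletion I clone 1 differed from clone 2 on chromosomes 1 and 14, where its genes were 0.46 and 0.44 higher at Mus shares of 67.9% and 66.4%. On chromosome 1, Rpl7 was at 1390 TPM against 983 TPM in clone 2, Rpl31 at 1012 against 736 TPM and Rpl37a at 859 against 659 TPM, and on chromosome 14 Rpl15 was at 276 against 192 TPM and Rps24 at 377 against 325 TPM. Rpl36a-ps1, also on chromosome 14, was an exception, at 241 and 244 TPM while its neighbours deviated by 0.53 in clone 1. In deletion F clone 2 it deviated by -0.02 while its neighbours deviated by 0.60.

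**Figure D4:**
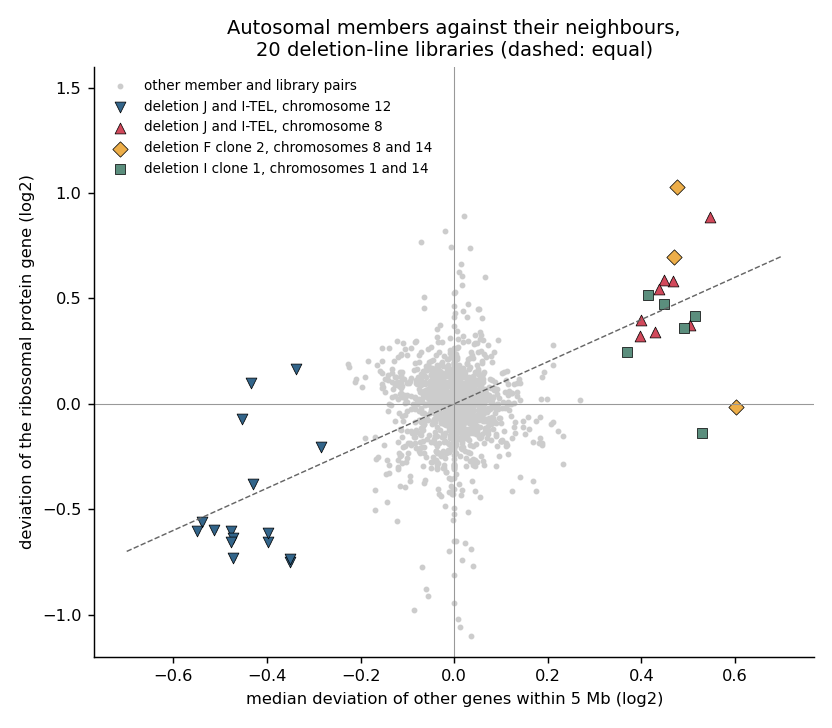
Deviation of each autosomal member in each library of the batch of 20 (log2, from the median of the 13 reference libraries) against the median deviation of the other genes within 5 Mb, with a dashed line of equality. The marked members of chromosomes 12 and 8 in deletions J and I-TEL and of deletion F clone 2 and deletion I clone 1 lie away from 0 on both axes, except for Rpl36a-ps1 (-0.14 and -0.02) and Rpl10l (-0.20 to 0.17), which stay near 0 on the vertical axis.

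In the XO lines, 331 of 332 such pairs had neighbours within 0.25 of the median of the 4 XO libraries, the exception being Rpl21 on chromosome 5 in XCastOMus clone 2. There the neighbours deviated by -0.86 and Rpl21 by -0.47. That library had a Mus share of 48.6% around Rpl21, like XX Rnf12+/- (50.5% and 49.5%), and the 3 others, which set the median, had 24.7 to 25.5%. Against XX Rnf12+/- the neighbours of Rpl21 were 0.65 higher in XCastOMus and 1.11 higher in XMusOCast, beside the rises of 1.93 and 2.48 of Rpl21 itself. Against XX Rnf12+/-, the rises of autosomal members in the XO lines were also seen where neighbours moved little: of the 73 members whose neighbours changed by 0.2 or less in XCastOMus, 44 were called higher and 6 lower, with a median of 0.45 against 0.00 for the neighbours, and in XMusOCast 37 of 58 were higher and 4 lower, with a median of 0.47 against 0.04.

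Genes with related roles were set beside the members in the same fits, and their counts stand beside the shares of all genes tested that are given above for each comparison. Of ribosomal proteins with other names, Fau was higher in both XO lines and Rack1 lower in XMusOCast. Of 20 other mRNAs known for the same translational control (among them Eef1a1, Eef2 and Tpt1), 11 were higher and 3 lower in XCastOMus and 13 and 3 in XMusOCast, and 0 were higher and 5 lower in J and 0 and 7 in I-TEL. Mitochondrial ribosomal proteins, 78 tested, split evenly in XCastOMus (14 higher, 14 lower) and had 23 higher and 15 lower in XMusOCast.

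In deletion C, where 21.1% of all genes were higher and 19.0% lower, 32 of the 78 mitochondrial ribosomal proteins were lower and 1 higher, 17 of 38 ribosome biogenesis genes were lower and 8 higher, and 9 of 13 p53 targets were higher and 0 lower. Of the p53 targets, 8 were lower and 1 higher in XCastOMus, where 23.3% and 19.5% of all genes were, and 11 lower and 1 higher in XMusOCast, beside 29.1% and 25.5%. Of the ribosome biogenesis genes, 11 were higher and 7 lower in XCastOMus, and 22 and 7 in XMusOCast. The lower ones of both XO lines included the X-linked Dkc1, Las1l and Gnl3l, at 1 copy there. The lower p53 targets of both XO lines included the X-linked Eda2r, also at 1 copy. In E 0 p53 targets were called. In C-G 1 was called, Eda2r, which lies in that deletion and was lower. In J and I-TEL 1 each was called, lower. Of 9 stem cell markers, 4 were lower and 1 higher in XCastOMus, and 5 lower and 0 higher in XMusOCast. In J and I-TEL 3 were lower and 1 higher each, and in C 2 were lower and 3 higher. Of the feeder markers 1 of 7 was lower in XMusOCast.

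The alleles of the autosomal members gave shares that depended on the library type. In XX Rnf12+/-, 70 autosomal members had at least 50 allelic reads, with a median Mus share of 50.4%, and 12 of them (17.1%) were over 90% or under 10%, against 3.37% of 8433 other expressed autosomal genes. The 4 over 90% Mus were Rplp1, Rps15, Rpl7a and Rpl11, and those under 10% included Rps29, Rpl38, Rpl36, Rpl6, Rps6, Rpl34 and Rps12. Rplp1 had 844 Mus and 5 Cast reads (99.4%, 95% Wilson interval 98.6 to 99.7), and Rps29 21 Mus and 2141 Cast reads.

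In the single-read XO libraries the same members were far less one-sided. Rplp1 was at 67.2% Mus (Wilson interval 66.4 to 68.0), and Rps29 at 48.6% (47.2 to 50.1) against 0.97% (0.64 to 1.48) in XX Rnf12+/-. Rpl7a stayed one-sided at 93.7% (93.0 to 94.4) and Rps6 at 8.33% (7.73 to 8.96). Of 76 members with enough reads in both the 8 reference lines and the XO lines, 28 differed by over 10 percentage points, and the number over 90% or under 10% went from 12 to 3.

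For Rplp1, allelic reads were also a larger part of all reads there, at 1.73 to 3.70% of the counts in the 26 paired-read libraries and 26.4 to 29.7% in the XO libraries. For Rps29 the ranges were 7.14 to 14.6% and 9.84 to 12.3%, which overlap, and for Rpl7a the median was 63.4% in the batch of 20, 55.8% in the batch of 6 and 54.7% in the XO libraries. Read type and XO state cannot be told apart in this comparison.

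**Figure D5:**
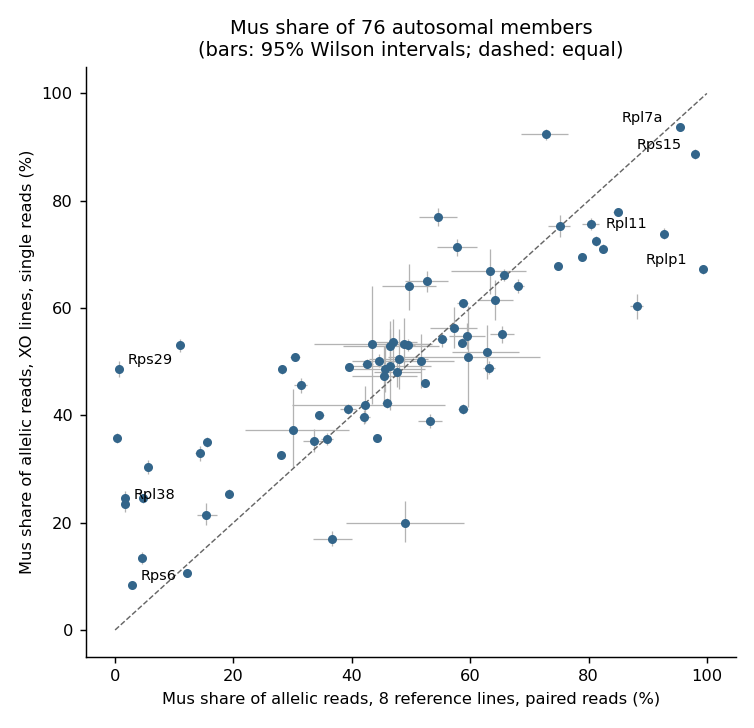
Mus share of allelic reads (%) of 76 autosomal members in the XO lines (single reads) against the 8 reference deletion lines (paired reads), with bars for 95% Wilson intervals and a dashed line of equality. Members at the left and right edges, such as Rps29 and Rplp1, move towards the middle of the vertical axis, whereas Rpl7a stays over 90% on both.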

How the data were processed

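Bulk mRNA of 30 libraries was analysed in the groups given by the labels, with clones as replicates. The labels do not say that clones were grown as separate cultures, so p-values measure the spread between these libraries. The authors prepared stranded libraries, aligned reads to mm10 masked at SNPs, split them by allele and deposited counts per gene of all reads and of each allele, without normalization. The submitters' processing notes name Trim Galore 0.6.7, HISAT2 2.2.1, SAMtools 1.10 and HTSeq 0.12.4, while the paper names featureCounts for the counting, so the counter is uncertain. How reads that fit several copies were counted is not given in the sources used here, and members with close copies are therefore uncertain.

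Of 55421 genes, 55240 matched GENCODE M21 (GRCm38, the same build) by identifier. The 181 others took no more than 0.00401% of any library's counts. TPM were computed from the counts and union exon lengths. The 11703 genes with a mean TPM over 5 in XX Rnf12+/- were fitted in edgeR 4.0.16 (R 4.3.3, quasi-likelihood test, all 30 libraries, 1 term per group, TMM factors of autosomal genes without members) in total and with log copy number in the offset, with Benjamini-Hochberg adjustment over all of them at 0.05. TPM tests were exact permutation tests, two-sided, on log2(TPM), and allelic ones on log2 of scaled counts with a pseudocount of 0.5. Deviations of members and neighbours within a batch used log2(TPM + 1). Python 3.11.15, numpy 2.4.6, pandas 2.3.3 and matplotlib 3.10.9 were used. The edgeR and permutation steps were tested on simulated data.

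Named members are the X-linked ones and their relatives, paralog pairs, the stalk proteins, Rpsa, Rpl5, Rpl11, up to 4 largest called rises and falls per comparison (libraries apart from the reference first), the highest and lowest 3 by TPM, and those with a Mus share over 90% or under 10%. Others (neighbours, low or one-sided members) were chosen after their values were seen. The members and lists were chosen with earlier results of these data known. Alternatives covered the tool (DESeq2 1.42.0), normalization, filters, reference, libraries in the fit, the replicate block and each replicate left out. Some genes that these rules name are not reported here. The lists were ribosomal proteins under other names (Fau and Rack1 are given), mitochondrial ribosomal proteins, other mRNAs with a 5′ TOP motif, ribosome biogenesis genes, p53 targets, and markers of stem cells, feeders and primitive endoderm.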

Additional observations from a re-analysis of the deposited data

Results flagged for a closer look

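Rps27l differed between the XO lines, which is why it stands here: its log2 fold change, XMusOCast over XCastOMus, was -0.42 by edgeR (adjusted p = 0.0103). The call was lost when only the 4 XO libraries were fitted (-0.43, adjusted p = 0.181), without XCastOMus clone 1 (-0.33, 0.070) and without XMusOCast clone 2 (-0.27, 0.173).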

How the results depend on the processing

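Of the called changes of single genes, 1 reversed under the alternatives run: Rpl10-ps3 in XCastOMus went from -1.63 to 0.17 with the 8 deletion lines as the reference, an alternative added after seeing the data. The cause was not tested, but its level differed between the paired-read batches. Of 66 values of single genes, 14 lost and 4 gained their call under some alternative, and 3 values that were not called changed sign. With XX Rnf12+/- as the reference the median of the members went from -0.11 to 0.04 in J and from -0.16 to 0.01 in I-TEL, and with upper-quartile factors from 0.04 to -0.03 in C. The counts of autosomal members called moved by over 1.5 times as follows, from 1 (XO lines compared), 2 (deletion E), 4 (deletion C), 0 (C-G), 14 (J) and 23 (I-TEL). With DESeq2 they were 2 for the XO lines and 1 for C-G, and with only the libraries of the batch 0 for the XO lines and 1 for E. With upper-quartile factors E had 1, and without the TPM filter E had 1, C 2 and I-TEL 11. With the reference swapped (XX wild type for E, XX Rnf12+/- for the others) E had 6, C 39, C-G 15 and I-TEL 13. Without deletion F clone 2 and deletion I clone 1, added after seeing the data, C-G had 1 and J 22. Leaving out 1 replicate at a time gave 0 to 3 for the XO lines, 0 to 2 for E, 0 to 9 for C, 0 to 1 for C-G, 5 to 18 for J (lowest without J clone 1), 6 to 26 for I-TEL (lowest without I-TEL clone 2), 1 for C-G without either deletion I clone, and 52 to 58 for each XO line against XX Rnf12+/-. Among protein-coding genes alone the median share of TPM taken by the members was 9.01% in the batch of 6, 10.2% in the batch of 20 and 10.6% in the XO lines.

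Libraries with the same replicate number did not deviate together (correlations of -0.29 and -0.27 for the XO lines with XX Rnf12+/-, -0.31 for E, 0.13 between the XO lines, and -0.18 to 0.23 over pairs of deletion lines), so the number is not a pairing. With it as a replicate block the counts were 57, 56 and 1 for XCastOMus, XMusOCast and the XO lines compared, 1 for E, 4 for C, 0 for C-G, 13 for J and 20 for I-TEL. With the numbers crossed, added after seeing the data, XCastOMus had 57, XMusOCast 56 and E 2 called.

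The share of reads that tell the alleles apart limits the allelic values: Rpl10 had at most 38 Cast reads per library in the batch of 20, and Rpl36a and Rpl39 had no allelic read in any paired-read library. C-G rests on 1 clone. The XO lines differ from all others in batch and read type.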
